A study of Capsicum chinense with 22 samples.

Results

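The levels of 4 genes of abscisic acid (ABA) synthesis and response were compared between mature and immature fruit of *Capsicum chinense* fruit. They were 4 of the 16922 genes in the deposited expression table and were picked by their identifiers: LOC107852027, named 9-cis-epoxycarotenoid dioxygenase NCED1, chloroplastic-like; LOC107875936 and LOC107847367, both named abscisic-aldehyde oxidase-like; and LOC107860006, named abscisic acid and environmental stress-inducible protein TAS14-like. These genes were chosen by their values in the same 8 groups described here, so their levels and differences are given as a description and carry no test. RNA was sequenced from pericarp, the fruit wall, in 22 libraries of 4 accessions that differ in the colour of ripe fruit and in pungency. The study asked how expression changes between mature fruit at 60 days after anthesis (DAA) and immature fruit at 20 DAA. Hab fruit were red and pungent, Biq fruit red and non-pungent, A101 fruit yellow and pungent, and A18 fruit yellow and non-pungent. Hab at 60 DAA and A18 at 20 DAA had 2 libraries each, and each of the other 6 groups had 3. All plants were grown untreated in a greenhouse, in a randomized block design per the methods. The methods say that a replicate pooled at least 3 fruits of one plant, but elsewhere name 3 fruits for each accession and stage. The p-values therefore measure the spread between replicates of one accession, and whether these were separate plants is not settled. Blocks are not labelled and were not fitted.

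ABA is made in plants from carotenoids of the plastid. Zeaxanthin epoxidase prepares the epoxycarotenoid precursors, a 9-cis-epoxycarotenoid dioxygenase (NCED) cleaves them to xanthoxin, a dehydrogenase turns xanthoxin into abscisic aldehyde, and an aldehyde oxidase that needs a sulfurated molybdenum cofactor finishes the hormone. NCED cleavage is regarded as the committed step, and ABA 8'-hydroxylases start the breakdown of the hormone. Receptors of the PYR/PYL family bind ABA and then inhibit type 2C protein phosphatases, which frees SnRK2 kinases to act on transcription factors of the ABI5 type, and dehydrins such as TAS14, first described in tomato, are among the proteins made in response. Pepper fruit are non-climacteric, and ABA has been linked to their ripening.

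The deposited values were variance-stabilized, close to a log2 scale, and centred on each gene's mean over the libraries. A value of 0 is therefore a gene's own average, and a level of one gene cannot be compared with a level of another. The medians of the libraries lay between −0.09 and 0.04 and their interquartile ranges between 0.68 and 1.23, and each of the 22 libraries had its nearest neighbour in its own group. Capsanthin/capsorubin synthase LOC107875664, which makes red pigments of pepper, lay between 4.90 and 7.10 at 60 DAA, against −6.74 to −4.63 at 20 DAA. It thus separated the stages but was high in mature yellow fruit too, at 4.90 to 5.03 in A18 and 5.13 to 5.95 in A101. Of 25 light-harvesting chlorophyll a-b binding genes, 21 were lower at 60 DAA on average over the accessions (background 21.5% of all genes). In Biq alone 13 were lower (23.3%) and 1 was higher (15.5%). The mean of the 25 genes lay between −1.96 and −0.26 at 60 DAA, against −0.49 to 2.81 at 20 DAA, and it was lower in red than in yellow accessions at 20 DAA. Within each accession this mean separated the stages. Over all libraries it did not, since immature Biq fruit (−0.49 to −0.35) lay within the range of mature A18 fruit (−0.76 to −0.26).

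NCED1 LOC107852027 was far higher in mature than in immature pericarp of every accession. In Hab it was at 2.82 and 2.78 at 60 DAA, against −3.19, −2.48 and −3.28 at 20 DAA. In A101 it was at 1.57, 2.23 and 2.01 at 60 DAA, against −2.30, −1.69 and −2.30 at 20 DAA. The libraries of the stages were thus separated in both pungent accessions. In Biq the values were 2.48, 2.14 and 2.36 at 60 DAA, against −2.54, −2.88 and −2.81 at 20 DAA. In A18 they were 2.88, 3.23 and 3.41 at 60 DAA, against −2.27 and −2.15 at 20 DAA. Every library at 60 DAA stood above every library at 20 DAA, and the gap between the lowest at 60 DAA and the highest at 20 DAA was 3.26. Since the samples are bulk tissue, more cells that express a gene and more RNA per cell cannot be told apart.

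**Figure D1:**
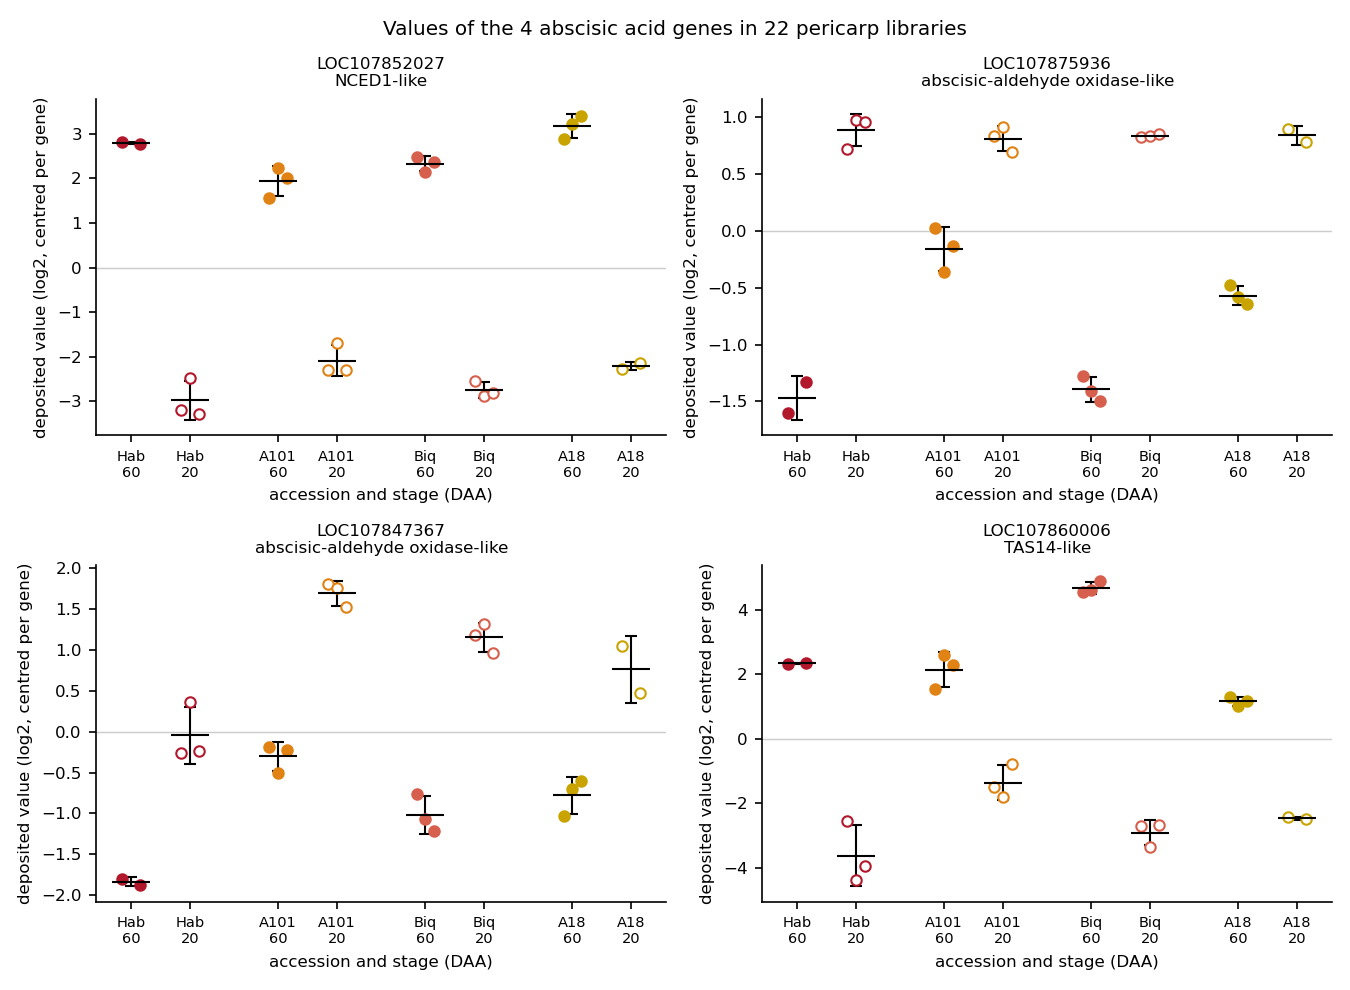
Deposited values (log2, centred per gene) of the 4 ABA genes in 22 pericarp libraries, with 1 panel a gene. Points are libraries, filled at 60 DAA and open at 20 DAA, and black marks give the group mean ± SD (n = 2 or 3). NCED1 and the TAS14-like gene were high at 60 DAA in every accession, LOC107875936 was low at 60 DAA, and in LOC107847367 the lowest Hab libraries at 20 DAA, at −0.26 and −0.23, lay among those of A101 at 60 DAA.

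The difference between 60 and 20 DAA in NCED1 averaged 5.07 ± 0.11 (limma estimate ± SE on the log2 scale), about 33.5-fold. It was 5.78 ± 0.24 in Hab, 5.38 ± 0.24 in A18, 5.07 ± 0.21 in Biq and 4.03 ± 0.21 in A101. A101 had the smallest difference, with both the lowest level at 60 DAA and the highest at 20 DAA. With all genes sorted by this difference, the largest first, NCED1 ranked 84 of 16922 on average and 60 in A18. Stage took up 96.4% of the gene's variance over the libraries, the accession within a stage 2.78% and the spread within groups 0.768%.

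Among the 8 groups, the order of NCED1 levels began with A18 at 60 DAA (mean 3.17 ± 0.27, SD, n = 3), followed by Hab at 60 DAA (2.80 ± 0.03, n = 2), Biq at 60 DAA (2.33 ± 0.17, n = 3) and A101 at 60 DAA (1.94 ± 0.34, n = 3). Biq and A101 overlapped at this stage, whereas A18 and Hab did not overlap with each other or with the next group. At 20 DAA the order was A101 (−2.10 ± 0.35), A18 (−2.21 ± 0.09), Biq (−2.75 ± 0.18) and Hab (−2.98 ± 0.44). Here A101 overlapped with A18 and Biq with Hab. The immature red-fruited accessions ranged from −3.28 to −2.48 and the immature yellow-fruited ones from −2.30 to −1.69, without overlap, a difference of −0.71 ± 0.16. With the libraries quantile-normalized this difference was −0.38. At 60 DAA the red-minus-yellow difference was 0.01 ± 0.16, and −0.42 after quantile normalization. Each colour class holds 2 accessions, so colour and accession cannot be told apart.

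The last step of synthesis went the other way. Both abscisic-aldehyde oxidase-like genes were lower at 60 than at 20 DAA in every accession, although NCED1 upstream of them was higher. LOC107875936 differed by −1.74 ± 0.06 on average, about 3.34-fold lower, and LOC107847367 by −1.88 ± 0.10, about 3.68-fold lower. Both differences were smaller in size than that of NCED1, and with all genes sorted the other way these genes ranked 1843 and 1603.

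LOC107875936 held nearly the same level in all immature fruit. In Hab it was at −1.61 and −1.33 at 60 DAA, against 0.72, 0.98 and 0.96 at 20 DAA. In Biq it was at −1.27, −1.41 and −1.49 at 60 DAA, against 0.83, 0.83 and 0.85 at 20 DAA. These red-fruited accessions had the lowest mature levels. In A101 the values were 0.02, −0.36 and −0.13 at 60 DAA, against 0.83, 0.91 and 0.69 at 20 DAA. In A18 they were −0.48, −0.58 and −0.65 at 60 DAA, against 0.90 and 0.78 at 20 DAA. Every library at 60 DAA was below every library at 20 DAA, with a gap of 0.67 between them.

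At 20 DAA the 4 accession means of LOC107875936 spanned 0.07, and each group overlapped with the next. At 60 DAA they spanned 1.31, in the order A101 (−0.16 ± 0.19), A18 (−0.57 ± 0.08), Biq (−1.39 ± 0.11) and Hab (−1.47 ± 0.19), where only Biq and Hab overlapped. The stage differences were accordingly −2.35 ± 0.12 in Hab and −2.23 ± 0.11 in Biq, against −1.41 ± 0.12 in A18 and −0.97 ± 0.11 in A101. Mature red fruit lay between −1.61 and −1.27 and mature yellow fruit between −0.65 and 0.02, a red-minus-yellow difference of −1.07 ± 0.08. At 20 DAA the same difference was 0.03 ± 0.08.

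In LOC107847367 A101 and Hab stood apart from the other accessions within each stage, while Biq and A18 overlapped. In Hab it was at −1.80 and −1.88 at 60 DAA, against −0.26, 0.36 and −0.23 at 20 DAA. In A101 it was at −0.18, −0.50 and −0.22 at 60 DAA, against 1.81, 1.76 and 1.52 at 20 DAA. Immature Hab fruit thus had levels close to those of mature A101 fruit. In Biq the values were −0.76, −1.07 and −1.22 at 60 DAA, against 1.19, 1.32 and 0.97 at 20 DAA. In A18 they were −1.03, −0.71 and −0.60 at 60 DAA, against 1.06 and 0.47 at 20 DAA. Within each accession the stages did not overlap, but over all libraries the highest at 60 DAA exceeded the lowest at 20 DAA by 0.08.

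The order of LOC107847367 at 20 DAA was A101 (1.70 ± 0.15), Biq (1.16 ± 0.18), A18 (0.76 ± 0.41) and Hab (−0.04 ± 0.35), where only Biq and A18 overlapped. At 60 DAA it was A101 (−0.30 ± 0.18), A18 (−0.78 ± 0.22), Biq (−1.02 ± 0.24) and Hab (−1.84 ± 0.06), where A18 and Biq overlapped. Immature Hab and mature A101 overlapped as well. Hab was therefore lowest and A101 highest at both stages, and the stage differences were alike, at −2.18 ± 0.18 in Biq, −2.00 ± 0.18 in A101, −1.80 ± 0.20 in Hab and −1.54 ± 0.20 in A18. Their range was 0.64, against a range of 1.38 in LOC107875936. Stage took up 67.9% of the variance of LOC107847367 and 81.5% of that of LOC107875936, and accession within a stage 29% and 17.3%.

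**Figure D2:**
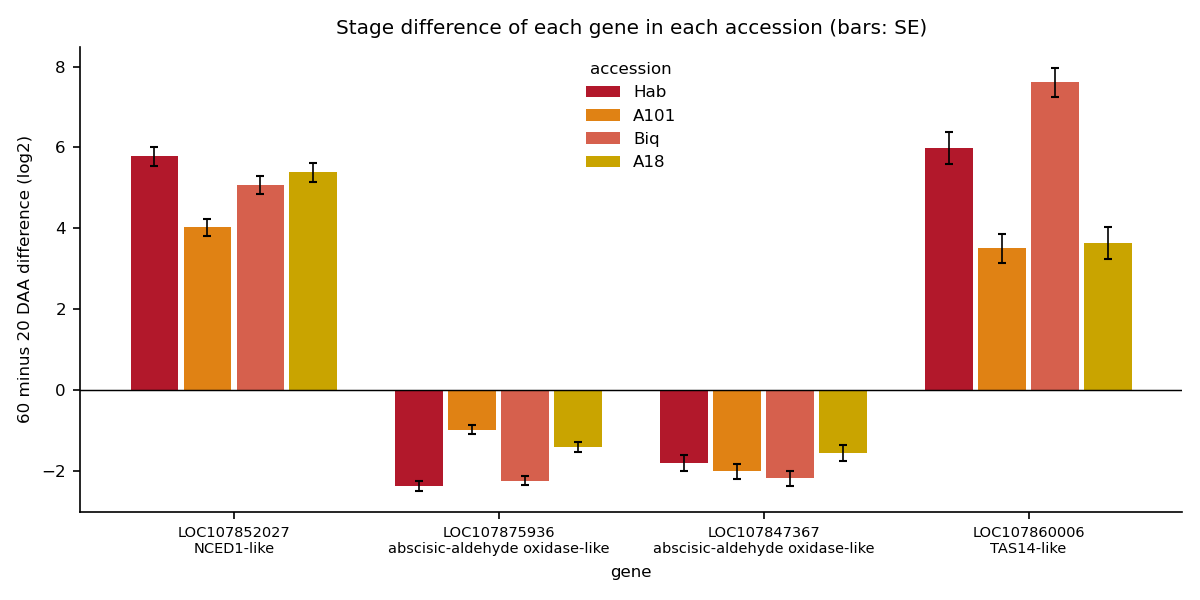
Difference between 60 and 20 DAA (log2) of the 4 ABA genes in each accession, with bars giving the SE of the limma estimate. The NCED1 and TAS14-like genes lay between 3.50 and 7.61 above 20 DAA, and the aldehyde oxidase-like genes between 0.97 and 2.35 below it.

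The TAS14-like gene LOC107860006, a relative of a tomato dehydrin induced by ABA and osmotic stress, had the widest range of the 4 genes. In Biq it was at 4.55, 4.62 and 4.91 at 60 DAA, against −2.70, −3.35 and −2.69 at 20 DAA. In Hab it was at 2.33 and 2.36 at 60 DAA, against −2.57, −4.39 and −3.94 at 20 DAA. Mature Biq fruit stood above all other libraries. In A101 the values were 1.54, 2.60 and 2.28 at 60 DAA, against −1.51, −1.81 and −0.77 at 20 DAA. In A18 they were 1.30, 1.00 and 1.19 at 60 DAA, against −2.44 and −2.50 at 20 DAA. The stages did not overlap, with a gap of 1.78 between the lowest library at 60 DAA and the highest at 20 DAA.

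Its stage difference averaged 5.18 ± 0.19, about 36.3-fold, and was not alike in size between accessions. It was 7.61 ± 0.35 in Biq, about 195-fold, and 5.98 ± 0.40 in Hab, against 3.63 ± 0.40 in A18 and 3.50 ± 0.35 in A101. In Biq it ranked 21 of 16922. The order at 60 DAA was Biq (4.69 ± 0.19), Hab (2.35 ± 0.02), A101 (2.14 ± 0.54) and A18 (1.16 ± 0.15), with Hab and A101 overlapping. At 20 DAA it was A101 (−1.36 ± 0.53), A18 (−2.47 ± 0.04), Biq (−2.91 ± 0.38) and Hab (−3.63 ± 0.95), with Biq and Hab overlapping. Immature Hab had the widest spread of any group in the 4 genes, and without its highest library the Hab stage difference was 6.51.

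Red-fruited accessions were thus higher than yellow-fruited ones in the TAS14-like gene at 60 DAA (1.87 ± 0.27) and lower at 20 DAA (−1.36 ± 0.27). At 20 DAA red fruit ranged from −4.39 to −2.57 and yellow fruit from −2.50 to −0.77, without overlap. At 60 DAA red fruit ranged from 2.33 to 4.91 and yellow fruit from 1.00 to 2.60, with overlap between Hab and A101. Pungency separated none of the 4 genes at either stage, since pungent and non-pungent libraries overlapped in each, and the pungent-minus-non-pungent differences lay between −0.68 ± 0.27 in the TAS14-like gene at 60 DAA and 0.19 ± 0.27 in the same gene at 20 DAA.

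**Figure D3:**
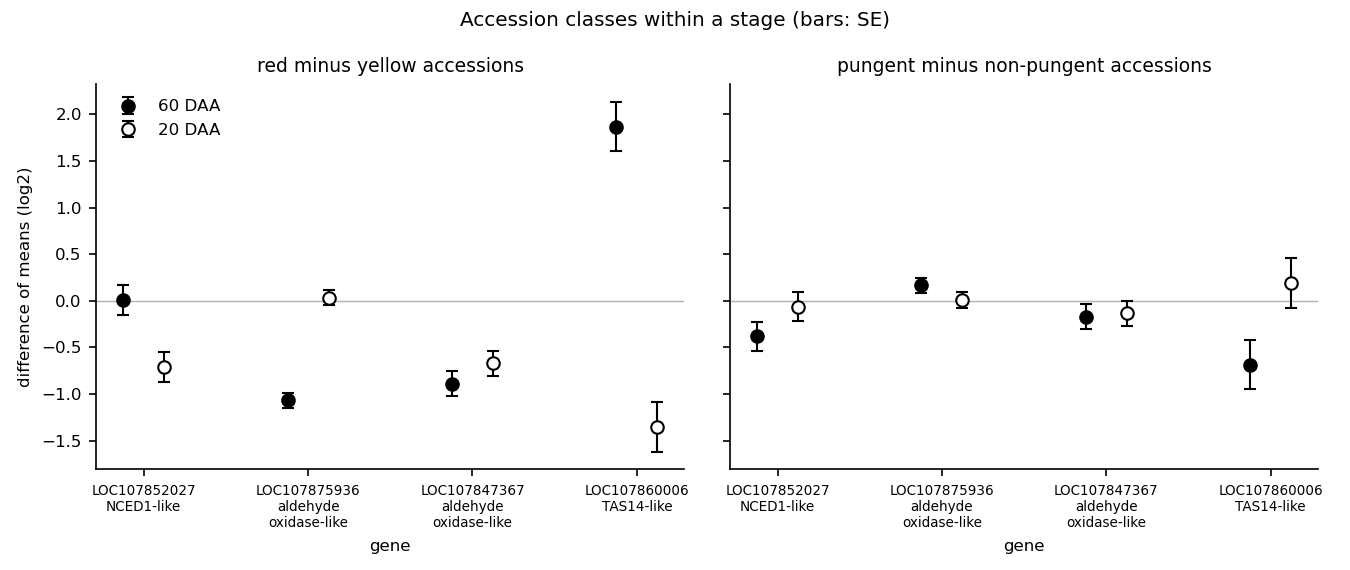
Red-minus-yellow (left) and pungent-minus-non-pungent (right) differences of the 4 ABA genes within a stage on the log2 scale, with bars giving the SE. This SE reflects the spread between libraries of a group and not that between accessions. The red-minus-yellow difference of the TAS14-like gene was 1.87 at 60 DAA and −1.36 at 20 DAA, and that of LOC107875936 was −1.07 at 60 DAA and 0.03 at 20 DAA.

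Over all genes, an adjusted p under 0.05 (limma, Benjamini-Hochberg over 16922 genes) with a difference of at least 1 was met by the mean of the accessions in 13.2% of all genes as higher and in 21.5% as lower at 60 DAA. By the same rule 2 of the 4 genes were higher and 2 lower, which the choice of the genes fixed. Of all genes 18.7% were higher and 26% lower in Hab, and 15.5% and 23.3% in Biq. The shares were 11.4% and 20.6% for A18 and 10.6% and 19.7% for A101. LOC107875936 in A101, at −0.97, was the single case among the 4 genes below the minimum difference. Every library at 60 DAA was above every library at 20 DAA in 15.7% of all genes and in 2 of the 4, and below in 21.6% of all genes and in 1 of the 4. The accession means spanned at least 1 and passed the F test in 30.2% of all genes at 60 DAA and in 15.9% at 20 DAA, and the stage differences did so in 34.2%. Of the 4 genes, all 4 met this rule at 60 DAA, 2 at 20 DAA and 3 for the stage differences. Nothing is read from these counts of chosen genes. Of the genes called over the mean of accessions, 61.9% were lower, and 51.4% after quantile normalization, which moved the median difference of all genes from −0.08 to 0.05.

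The 4 genes followed each other mainly through stage. Over the 22 libraries, which share stage and accession, NCED1 and the TAS14-like gene had a Pearson r of 0.89, and NCED1 had r of −0.90 with LOC107875936 and −0.79 with LOC107847367. With the mean of each stage subtracted these values were −0.03, −0.19 and 0.18. The aldehyde oxidase-like genes had r of 0.86 with each other, and 0.49 with stage means subtracted. LOC107875936 and the TAS14-like gene kept the largest value within stages, at −0.57.

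The genes whose pattern was most like that of each of the 4 were found by the same measure among 12757 genes with a descriptive name. Those nearest to NCED1 were LOC107877872, a serine/threonine-protein kinase HT1-like (r = 0.99), LOC107872973, a flavin-containing monooxygenase FMO GS-OX-like 4 (0.99), and LOC107864054, sucrose synthase 2 (0.99). With stage means subtracted they were LOC107860056, mannose-6-phosphate isomerase 1-like (0.88), LOC107871486, proteasome subunit beta type-5 (0.86), and LOC107860653, monodehydroascorbate reductase 4, peroxisomal (0.85). None of the first 3 was thus among those nearest within stages. For LOC107875936 they were LOC107875675, transcription factor LHW (0.99), LOC107858879, a kinesin-like calmodulin-binding protein (0.99), and LOC107853231, auxin response factor 8-like (0.99). Within stages LOC107850430, violaxanthin de-epoxidase, chloroplastic, came first (0.96), followed by LOC107875675 (0.95) and LOC107853231 (0.95). Violaxanthin de-epoxidase acts on the xanthophylls from which ABA is made, in the direction opposite to zeaxanthin epoxidase.

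For LOC107847367 the nearest genes were LOC107873129, type IV inositol polyphosphate 5-phosphatase 6 (r = 0.96), and LOC107840741 and LOC107873591, putative late blight resistance protein homologs R1B-16 (0.96) and R1A-3 (0.96). Within stages they were LOC107842816, DEAD-box ATP-dependent RNA helicase 22-like (0.92), LOC107851705, a probable LRR receptor-like serine/threonine-protein kinase (0.89), and LOC107873129 (0.89). For the TAS14-like gene the same 3 genes led both ways: LOC107841038, aldehyde dehydrogenase family 2 member C4-like (0.99, and 0.95 within stages), LOC107842294, prohibitin-1, mitochondrial-like (0.99 and 0.92), and LOC107844066, FH protein interacting protein FIP2 (0.98 and 0.92).

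Relatives of the 4 genes by name did not all share their pattern. The other NCED in the table, NCED3-like LOC107846808, was high in mature Hab fruit alone, at 2.09 and 2.04, against −0.32 to −0.23 in immature Hab fruit, and it lay between −0.41 and 0.25 in all other mature libraries. Its stage difference was 2.35 in Hab. It was 0.29 in Biq, −0.07 in A101 and 0.07 in A18, with an overall mean of 0.66 ± 0.05 that missed the minimum of 1 (limma adjusted p = 2.67e-10), and these differences were not equal (F test, adjusted p = 5.86e-10). Its r with NCED1 was 0.39 over the libraries and 0.17 within stages.

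Of the 3 indole-3-acetaldehyde oxidase-like genes, which belong to the same enzyme family as the abscisic-aldehyde oxidases, LOC107847503 fell by 1.63 ± 0.08 on average (limma adjusted p = 3.78e-13). Its r with LOC107847367 was 0.95 over the libraries and 0.85 within stages, and like that gene it was lower in Hab, at −0.12 to 0.52 in immature fruit, than in immature A101, at 1.375 to 1.496. LOC107847730 differed by −0.71 ± 0.09, below the minimum, and had r of 0.80 with LOC107875936 within stages. LOC107845663 had a mean difference of 0.00 ± 0.10 (limma adjusted p = 0.985) and stood above the other accessions in A18, at 1.26 to 2.21 in mature and 1.85 to 2.16 in immature fruit, against −0.63 to −0.19 in all other libraries. In 11 libraries it sat at its lowest value. Reads of such similar genes may be split by the quantification, so the values of the 2 abscisic-aldehyde oxidase-like genes and of these relatives are uncertain to that extent.

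The gene named TAS14 itself, LOC107858554, rose by 4.39 ± 0.12 on average (limma adjusted p = 1.62e-17) and had r of 0.97 with the TAS14-like gene, and 0.82 within stages. Its differences, the largest of them 5.81 in Biq and 5.01 in Hab, next to 3.87 in A101 and 2.87 in A18, were not equal (F test, adjusted p = 4.4e-06). Both were highest in mature Biq fruit, where TAS14 lay between 3.23 and 3.31, and on average lowest in immature Hab fruit, where TAS14 lay between −3.18 and −3.02. Reads may be shared between this pair as well.

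**Figure D4:**
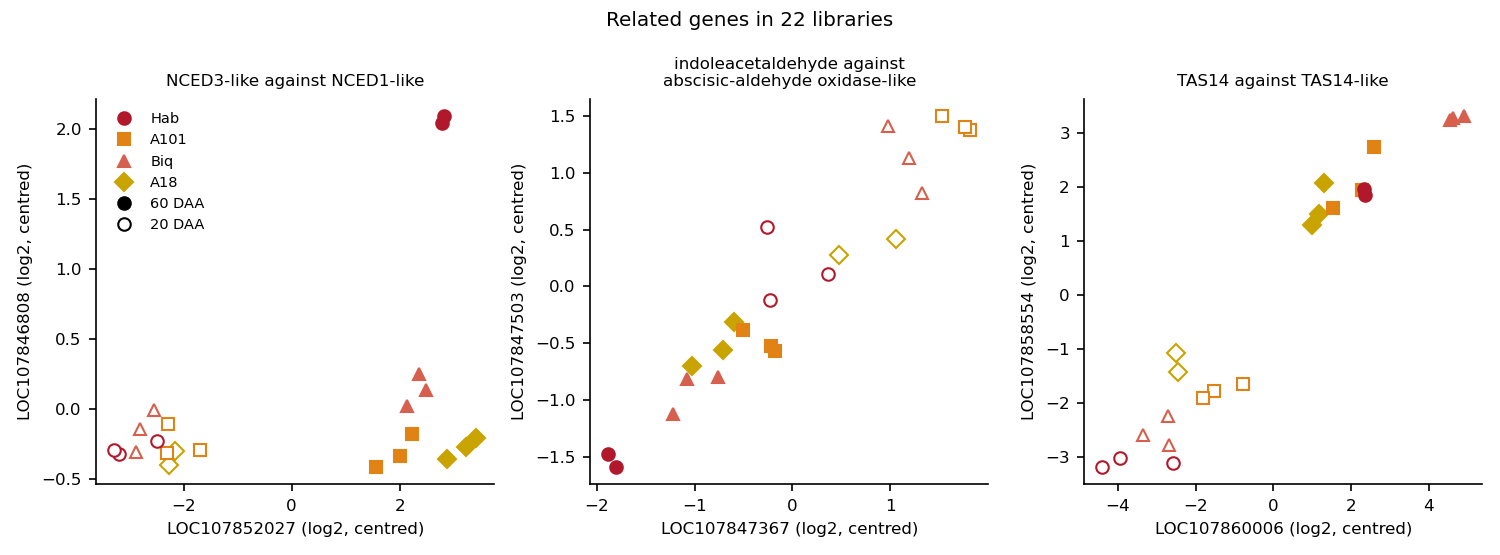
Values (log2, centred per gene) of 3 of the ABA genes against a relative in 22 libraries: NCED3-like against NCED1 (left), indole-3-acetaldehyde oxidase-like LOC107847503 against LOC107847367 (middle) and TAS14 against the TAS14-like gene (right). Filled marks are 60 DAA, open marks 20 DAA. NCED3-like stood out only in the 2 mature Hab libraries, at 2.09 and 2.04, and the other pairs had r of 0.95 and 0.97.

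Among the 68 other genes of ABA synthesis, breakdown, transport, signalling and response found by name, 22 were higher (background 13.2% of all genes) and 14 lower (21.5%) on average. Within single accessions 20 were higher (18.7% of all genes) and 17 lower (26%) in Hab, and 20 (15.5%) and 18 (23.3%) in Biq. The counts were 15 (11.4%) and 16 (20.6%) for A18 and 22 (10.6%) and 18 (19.7%) for A101. After quantile normalization the lower genes numbered 10 in Hab and 9 in Biq. Lower calls among all genes then went from 4406 to 3181 in Hab and from 3944 to 3216 in Biq. The median difference of these 68 genes was −0.07 and that of all genes −0.08, while the median size of the difference was 1.10 and 0.66. In all 4 accessions 11 were higher and 8 lower, against 6.7% and 13.5% of all genes. The list was drawn up with results of these data known.

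In synthesis, 1 of 7 listed genes rose (14.3%, against 13.2% of all genes) and 2 fell (28.6%, against 21.5%) on average. Xanthoxin dehydrogenase-like LOC107855067 belongs to the step between NCED1 and the aldehyde oxidases and fell by 3.07 ± 0.07 on average (limma adjusted p = 2.02e-18). The other gene of that name, LOC107855068, differed by −0.91 ± 0.09, below the minimum. Of the 3 molybdenum cofactor sulfurase genes, whose product activates aldehyde oxidases, LOC107863351 fell by 1.53 ± 0.07 (adjusted p = 7.78e-14) and LOC107842966 rose by 1.33 ± 0.06 (adjusted p = 2.29e-14). LOC107863351 had r of 0.95 with LOC107875936 (0.65 within stages) and 0.82 with LOC107847367 (0.23), and LOC107842966 had r of −0.82 (−0.21) and −0.70 (0.03) with the same genes. In breakdown, ABA 8'-hydroxylase 1 LOC107870293 rose by 2.43 ± 0.10 (adjusted p = 1.25e-14), with r of 0.89 to NCED1 that was −0.08 within stages, and ABA 8'-hydroxylase 4 LOC107840293 rose by 1.27 ± 0.08 (adjusted p = 1.44e-11). The other 2 hydroxylase genes, LOC107866975 and LOC107867833, differed by −0.93 ± 0.06 and −0.84 ± 0.18, below the minimum.

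In transport, LOC107848141, NRT1/PTR family 4.6-like, relative of an ABA importer of Arabidopsis, rose by 2.38 ± 0.07 (limma adjusted p = 2.96e-17). LOC107868037, ABC transporter G family member 25, an ABA exporter in Arabidopsis, fell by 2.16 ± 0.12 (limma adjusted p = 1.44e-12). LOC107868037 sat at its lowest value in 8 libraries, all at 60 DAA. Among 8 receptors 1 rose (12.5%, against 13.2% of all genes) and 2 fell (25%, against 21.5%), shares close to those of all genes. PYL12-like LOC107858118 rose by 4.63 ± 0.10 (limma adjusted p = 7.67e-19). PYL4-like LOC107843441 fell by 1.69 ± 0.08 (limma adjusted p = 1.84e-13) and PYL8 LOC107863146 by 1.53 ± 0.08 (limma adjusted p = 6.5e-13). Of 5 phosphatases 3 rose (60%, against 13.2% of all genes) and 1 fell (20%, against 21.5%). The rises were led by protein phosphatase 2C 37 LOC107871198 at 2.24 ± 0.07 (limma adjusted p = 7.2e-17) and 2C 16-like LOC107861707 at 1.70 ± 0.09 (limma adjusted p = 9.58e-13). Probable 2C 75 LOC107865157 fell by 1.32 ± 0.06 (limma adjusted p = 4.13e-14). None of 6 kinases passed both limma criteria on average, while at an unadjusted p under 0.05 with no minimum 2 were higher and 3 lower. SAPK1-like LOC107867461 (0.82), SRK2B LOC107839914 (−0.91), SAPK3-like LOC107868580 (−0.92) and SAPK2-like LOC107870165 (−0.61) missed only the minimum. Each of them had a limma adjusted p of 1.24e-05 or less. Of 7 transcription factors of the ABI5 type 3 rose (42.9%, against 13.2% of all genes) and none fell (against 21.5%) past both criteria. They were led by ABI5-like protein 7 LOC107840274 at 1.70 ± 0.10 (limma adjusted p = 7.26e-12) and ABI5 LOC107856112 at 1.42 ± 0.10 (limma adjusted p = 8.17e-11). ABI5 LOC107856112 sat at its lowest value in 12 libraries. At an unadjusted limma p under 0.05 with no minimum 6 were higher and 1 was lower, LOC107854563 at −0.70 (limma adjusted p = 2.45e-08). The shares of all genes at this cutoff were not computed, here or for the kinases.

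Among 26 other response proteins 11 rose (42.3%, against 13.2% of all genes) and 7 fell (26.9%, against 21.5%). The median difference of the group was 0.11, so a large rise like that of the TAS14-like gene was found in some of them only. HVA22-like protein e LOC107851653 rose by 3.86 ± 0.07 (limma adjusted p = 1.77e-20). Dehydrin Xero 1-like LOC107858537 rose by 4.40 ± 0.15 (limma adjusted p = 7.47e-16), with r of 0.88 to the TAS14-like gene and 0.38 within stages. It was highest in mature Hab fruit, at 4.57 and 4.71, and not in Biq, at 2.12 to 3.56. Both other dehydrin genes listed, HIRD11-like LOC107871210 and LOC107872646, were lower on average. They differed by −1.11 ± 0.10 (limma adjusted p = 2.48e-09) and −1.15 ± 0.11 (limma adjusted p = 1.53e-08). Their r with the TAS14-like gene was −0.72 and −0.83, and 0.01 and −0.125 within stages. BURP domain protein RD22 LOC107842831, a dehydration-responsive gene in Arabidopsis, fell by 5.66 ± 0.17 (adjusted p = 6.88e-17), and putative GEM-like protein 8 LOC107870375 fell by 3.05 ± 0.08 (adjusted p = 8.05e-18). Dehydrins and late embryogenesis abundant proteins are also made in seeds. The mean of 3 seed storage genes lay between −0.57 and 1.27 at 60 DAA, against −0.54 to −0.15 at 20 DAA, and 1 of the 3 was higher on average, vicilin C72-like LOC107854665 at 1.57 ± 0.24 (adjusted p = 5.02e-06). That gene differed by 2.79 in A101, 2.28 in Biq and 1.21 in A18, all past the threshold, and by 0.02 in Hab (limma adjusted p = 0.979). It sat at its lowest value in 11 libraries. The other seed storage genes, LOC107842481 and LOC107864410, differed by −0.44 ± 0.11 and 0.38 ± 0.09 on average, below the minimum of 1. Embryonic protein DC-8 LOC107843177 and the late embryogenesis abundant protein genes LOC107840434 and LOC107860009 were singled out after their values were seen. They rose in A101 (1.49, 1.70 and 2.33) and Biq (1.87, 1.80 and 1.88). Unlike vicilin C72-like LOC107854665, which was also called in A18, they were not called in Hab or A18. LOC107840434 and LOC107860009 sat at their lowest value in 11 and 12 libraries. The other listed genes of this kind differed from that pattern. LOC107851375 and LOC107839262 were called higher in every accession, with 1.32 and 2.69 in Hab, and LOC107839261 was called higher in Hab alone (1.21). The TAS14-like gene had differences of 3.50 in A101, 7.61 in Biq, 3.63 in A18 and 5.98 in Hab. The part of seed RNA in any of these differences was not tested.

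**Figure D5:**
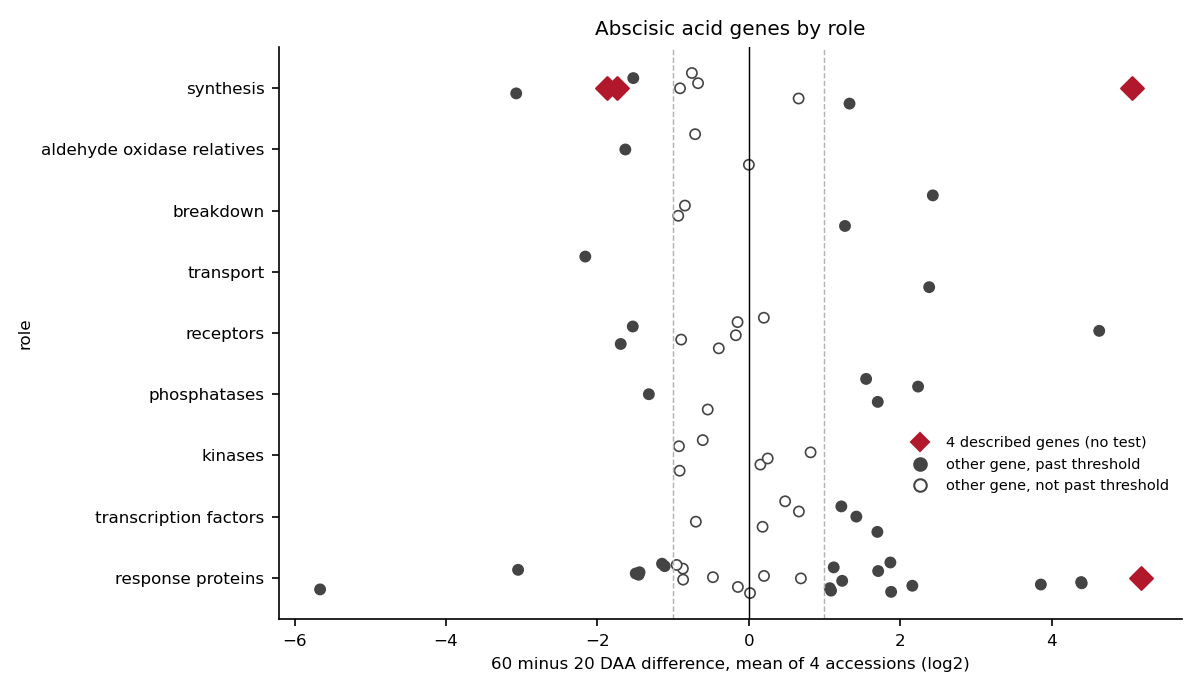
Mean difference between 60 and 20 DAA (log2) of the 4 described ABA genes (diamonds) and of 68 other ABA genes (circles) by role, filled where the adjusted p was under 0.05 and the difference at least 1 in size (dashed lines). NCED1 lay at 5.07 and the aldehyde oxidase-like genes at −1.74 and −1.88 within synthesis, and the TAS14-like gene at 5.18 within a group of response proteins that ranged down to −5.66.

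Accessions differed in many of the listed genes as well, in 33 of 68 at 60 DAA (background 30.2%) and in 14 at 20 DAA (15.9%), and the stage differences were unequal in 35 (34.2%). At 60 DAA the widest spans of accession means among genes past the threshold were in dehydrin Xero 1-like LOC107858537 (3.99), abscisic stress-ripening protein 2-like LOC107867640 (3.64) and HVA22-like protein e LOC107875806 (2.94), set against 3.53 in the TAS14-like gene. At 20 DAA they were in LOC107867640 (3.00), LOC107845663 (2.63) and PYL12 LOC107871127 (2.49), set against 2.27 in the TAS14-like gene. LOC107867640 was high in Hab, at 1.83 and 1.98 in mature and 1.71 to 3.34 in immature fruit, where the TAS14-like gene was lowest in immature fruit. LOC107875806 was high in mature Biq (1.90 to 2.56) and A18 (1.96 to 2.42) fruit, which are both non-pungent, and the TAS14-like gene was high in Biq but lowest of the mature fruit in A18.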

How the data were processed

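The authors removed adapters and low-quality bases with fastp 0.23.1, and Salmon 1.6.0 assigned the reads to transcripts of a related species (*C. annuum*, Zunla-1). The authors analysed gene counts with DESeq2 1.36.0 under R 4.2.0 and deposited variance-stabilized values, close to log2 and centred per gene. The table holds no counts, so library depth was not used here and precision comes from the spread between libraries. The paper shows library sizes in a supplementary figure. The 4 genes and all lists were chosen with earlier results of these data known. Gene names are those of the table. None of its 16922 IDs matched the reference annotation used here (*C. chinense*), and coordinates are left out.

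Group means were fitted with limma 3.58.1 in R 4.3.3 on all 22 libraries and 8 groups (14 residual degrees of freedom), with p-values adjusted by Benjamini-Hochberg over 16922 genes. A call needed an adjusted p under 0.05 and a log2 difference, or a range of the accession means or stage differences, of at least 1. The script was checked on simulated data. Columns name the accession and stage but no replicate, so libraries were mapped to groups only. Outside the 4 genes, all NCED, indole-3-acetaldehyde oxidase and ABA 8'-hydroxylase genes are named, and of each other role up to 2 higher and 2 lower genes with the largest mean differences past the threshold, the 3 with the widest accession range at each stage and, for each of the 4 genes, the 3 most correlated named genes in either way. A few more listed genes are given for comparison and are not among the 28 counted below. The alternatives tried were quantile normalization, centring of each library on its median, removal of genes in which 3 or more libraries share the lowest value, array weights, a robust variance prior, no minimum difference, fits on one accession and leaving out each library in turn.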

Additional observations from a re-analysis of the deposited data

Results flagged for a closer look

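The stage difference was not equal between the 4 accessions in 16 of the 28 other ABA genes named by the rule above (limma F test of the interaction, adjusted p under 0.05 and a range of at least 1). These genes were named partly for wide differences between accessions or large stage differences, so the count is not set against that of all genes. In none of them was an explanation tested.

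The range of the 4 stage differences on the log2 scale was 5.29 in dehydrin Xero 1-like LOC107858537, 3.12 in PYL12 LOC107871127, 2.94 in TAS14 LOC107858554 and 2.75 in HVA22-like protein e LOC107875806. It was 2.68 in RD22 LOC107842831, 2.66 in NRT1/PTR family 4.6-like LOC107848141, 2.42 in NCED3-like LOC107846808 and 2.27 in ABA 8'-hydroxylase 1 LOC107870293. It was 1.89 in abscisic stress-ripening protein 2-like LOC107867640, 1.65 in ABI5 LOC107856112, 1.63 in ABA 8'-hydroxylase 4 LOC107840293 and 1.62 in PYL12-like LOC107858118. It was 1.497 in protein phosphatase 2C 37 LOC107871198, 1.48 in PYL8 LOC107863146, 1.17 in indole-3-acetaldehyde oxidase-like LOC107847503 and 1.09 in LOC107847730. PYL12 LOC107871127 turned direction, with differences of 1.05 in Hab and −2.07 in A101.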

How the results depend on the processing

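No paired analysis was possible because the columns carry no replicate numbers. Quantile normalization moved 13 stage differences of the 4 genes by more than the spread between libraries, and none changed sign. In NCED1 LOC107852027 they became 4.87 in A101, 6.01 in A18 and 5.42 on average. In LOC107875936 they became −1.87 in Hab, −0.84 in A101, −1.92 in Biq, −1.24 in A18 and −1.47 on average. In LOC107847367 they became −1.35 in Hab, −1.88 in Biq and −1.60 on average, and in LOC107860006 4.27 in A101 and 4.1996 in A18. The red-minus-yellow difference of LOC107852027 became −0.42 at 60 DAA and −0.38 at 20 DAA, and at 60 DAA that of LOC107875936 became −0.83 and that of LOC107860006 1.33. The count of lower listed genes became 10 in Hab and 9 in Biq, and that of all lower genes 3181 in Hab and 3216 in Biq.

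Without a minimum difference, the counts of lower listed genes were 28 in Hab, 30 in A101, 29 in Biq, 30 in A18 and 34 on average, of higher ones 24 in A18, and of genes that differed between accessions 53 at 60 DAA and 42 at 20 DAA. Leaving out each library in turn, the stage difference of LOC107847367 in A18 lay between −1.84 and −1.25, that of LOC107860006 in Hab between 5.60 and 6.51 and that of LOC107875936 in Hab between −2.49 and −2.22. The counts of listed genes stayed within 1.5 times the reported ones in all 22 of these fits, and under array weights, the robust prior, library medians, the low-value filter and single-accession fits. The unequal stage differences of LOC107847503, LOC107858118 and LOC107871198 were below the threshold after quantile normalization, with ranges of 0.97, 0.71 and 0.90. Of genes whose stage differences were not called unequal, 5 were called with array weights. Leaving out a library added such a call in 10 cases: LOC107868037, LOC107861707, LOC107843441 and LOC107867833 without an immature Hab library, LOC107843441 also without a mature A18 or A101 library, LOC107845663 without a mature A18 library, and LOC107855067 and LOC107867833 without a mature Biq library. The alternatives for the colour and pungency differences and for single named genes were chosen after seeing the data. The causes were not tested. Values are limited by 2 or 3 libraries a group, and library depth was not taken into account. Of the 68 listed genes, 8 share their lowest value in 3 or more libraries.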
